A study of Mus musculus with 4 samples.

Results

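Transcripts of 10 core and naive pluripotency transcription factors were examined after depletion of the zinc finger protein ZBTB21: Pou5f1, Sox2, Nanog, Klf2, Klf4, Klf5, Esrrb, Tbx3, Tfcp2l1 and Zfp42. They were chosen by name, through the Ensembl IDs of the count table, as 10 of its 55401 genes. Each of the 10 passed the low-count filter, with 1540 (Tbx3) to 10997 (Tfcp2l1) counts in a library, and was among the 13916 genes tested. RNA was sequenced from mouse embryonic stem cells (mESCs) in 2 ZBTB21 degron libraries and 2 untreated libraries, to ask how gene expression changed once the protein was gone. In this line the mAID degron and GFP were knocked into the endogenous Zbtb21 gene at the C-terminus, in homozygous clones, and OsTIR1, the plant F-box protein that recruits tagged proteins for degradation in the presence of auxin, was inserted at Rosa26. The degron cells were given 1 µg/ml doxycycline for 24 h, followed by 500 µM of the auxin indole acetic acid (IAA) for another 24 h. The untreated cells were of the same line, and the labels do not state whether they received doxycycline. Both groups grew in serum with LIF, the GSK3 inhibitor CHIR99021 and the MEK inhibitor PD0325901. No library with these additions and untagged ZBTB21 was analysed here, so an effect of doxycycline or IAA alone cannot be told apart from loss of ZBTB21. The number of clones behind the libraries is not given, nor whether replicates were separate cultures, so the p-values reflect the spread among 4 libraries, and that spread may be technical.

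Embryonic stem cells hold their identity through a small network of transcription factors that bind one another's genes. OCT4 (encoded by Pou5f1), SOX2 and NANOG form its core, OCT4 and SOX2 binding DNA side by side. Around them stand factors of the naive state, the condition of the preimplantation epiblast, which LIF acting through STAT3, GSK3 inhibition acting through β-catenin and TCF7L1, and MEK inhibition sustain in culture.

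The counts summed to between 8344408 and 9055498 in the degron libraries and to between 9431642 and 10604451 in the untreated libraries. Levels are given as CPM, counts brought to a common library total after TMM scaling, and changes as log2 fold changes, degron minus untreated, from edgeR's quasi-likelihood test with Benjamini-Hochberg adjustment over all tested genes. Zbtb21 mRNA itself stood at 129 and 133 CPM in degron cells, against 61.6 and 56.8 CPM in untreated cells, and since the degron acts on the protein this does not check the labels. A summed list of 10 fibroblast markers gave 25.5 to 26.7 CPM in degron cells and 26.0 to 26.6 CPM in untreated cells, with Postn, Dcn and Lum at 0. Sums of 10 trophoblast markers (222 to 228 CPM in degron cells, 222 to 230 CPM in untreated cells), 8 mesendoderm markers (15.7 to 17.8 CPM in degron cells, 17.8 to 18.9 CPM in untreated cells) and 8 markers of 2-cell-like cells (2.39 to 2.86 CPM in degron cells, 7.37 to 8.97 CPM in untreated cells) were small beside the 10 factors, with Cer1 at 0. A list of 10 neural markers summed to 154 to 156 CPM in degron cells and to 187 to 191 CPM in untreated cells, with Neurog2 at 0. Of 5 tested fibroblast markers 1 was called higher and 1 lower, and of 7 tested trophoblast markers 2 higher and 1 lower. All 3 tested 2-cell-like markers and 3 of 5 tested neural markers were called lower. DESeq2 did not keep the 2-cell-like calls, the upward trophoblast calls or 1 of the neural calls. Over all tested genes 22.2% were called higher and 21.6% lower. A list of 6 stem cell markers, Utf1, Tdgf1 and Lin28a among them, was lower in degron cells. It summed to 2019 to 2041 CPM in degron cells and to 2684 to 2718 CPM in untreated cells. Of its 6 genes 5 were called lower and 0 higher, beside 21.6% and 22.2% of all tested genes. The same genes are counted again in the pluripotency factor and downstream marker lists below, so they are not separate evidence. That downstream list also holds Spp1, Jam2, Alpl and Gdf3, which were called higher. The 15 primitive endoderm markers summed to 1890 to 1893 CPM in degron cells and to 1484 to 1519 CPM in untreated cells. Most of it came from the laminin gene Lamc1 and from Sparc, both of which rose. Of the 15 markers 11 were tested, of which 4 were called higher and 2 lower, beside 22.2% and 21.6% of all tested genes. Those called lower were Col4a1 (-0.76, edgeR adjusted p = 2.46e-06) and Lamb1 (-0.49, edgeR adjusted p = 3.30e-06). Of the endoderm regulators in this list Gata4 was called higher (9.25 and 10.4 CPM in degron cells, against 6.14 and 6.92 CPM in untreated cells, edgeR adjusted p = 0.00655). That call was lost in DESeq2 (0.179) and without untreated replicate 1 (0.0617) or degron replicate 2 (0.0784), with adjusted p between 0.00304 and 0.179 over the 12 alternatives. Sox17 averaged 1.26 CPM in degron cells and 0.547 CPM in untreated cells, and Dab2 1.92 CPM in degron cells and 1.05 CPM in untreated cells, both separated but not called, and Gata6 was too low to be tested, at 0.114 CPM in degron cells and 0.209 CPM in untreated cells. Whether RNA of such cells had a part in the results was not tested.

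The 10 factors moved in both directions. Klf2, Klf4, Klf5, Esrrb, Tbx3 and Tfcp2l1 rose, Sox2 and Nanog fell, and Pou5f1 and Zfp42 did not pass the test. The 6 of 10 called higher and 2 of 10 called lower at an adjusted p under 0.05 stand against 22.2% and 21.6% of all tested genes. The 8 of 10 called in either direction stand against 43.8%. Since the factors and the lists below were chosen with earlier results of these data known, such differences from the shares are a description only. Abundant genes were called more often. Among the 1123 tested genes at least as abundant as Tbx3, the least abundant of the 10, the shares were 19.9% higher, 44.1% lower and 63.9% in either direction, a comparison added after the values were seen. The median change of the 10 was 0.26 on the log2 scale, against 0.01 over all tested genes. Both degron libraries lay above both untreated libraries for 6 factors and below them for 2, where 36.3% of all tested genes were separated upward and 34.4% downward (70.6% in either direction). For 1 gene in 2 against 2 libraries the smallest two-sided p of an exact permutation test is 0.333, so each call rests on the model fitted across genes. In bulk RNA, fewer cells expressing a factor and less of its RNA per cell cannot be told apart.

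**Figure D1:**
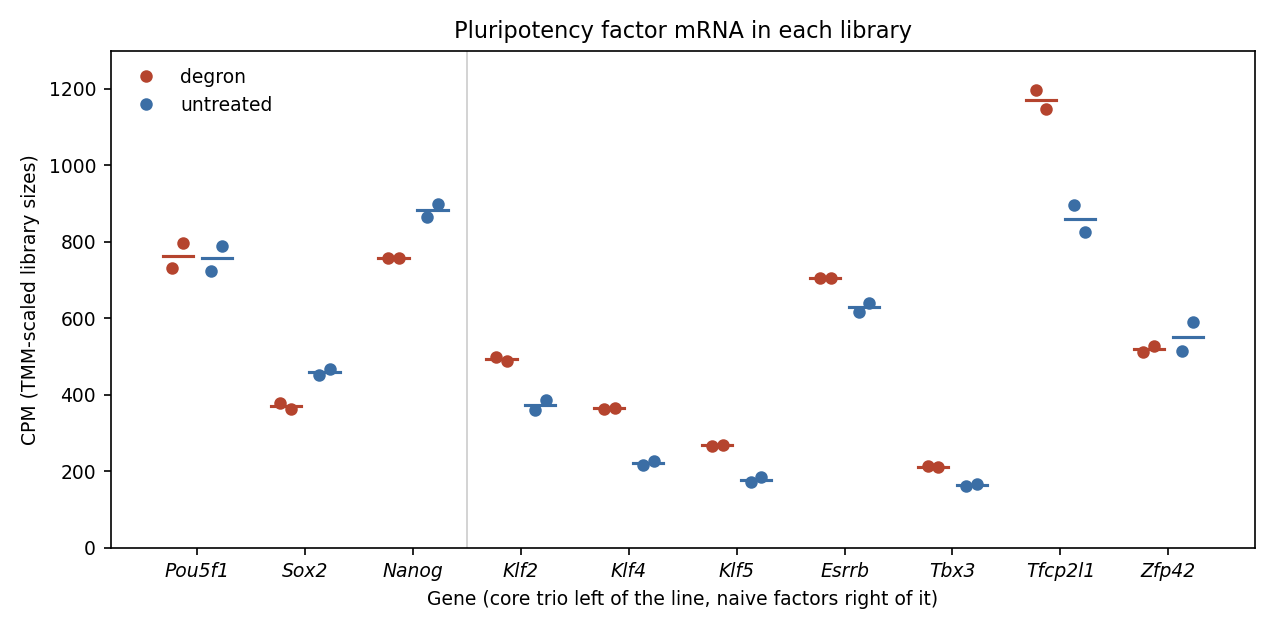
The plot of factor levels by library shows CPM on TMM-scaled library sizes, with 1 point per library, degron left of untreated for each gene and a bar at the group mean (n = 2). Both degron points lie above both untreated points for Klf2, Klf4, Klf5, Esrrb, Tbx3 and Tfcp2l1, below them for Sox2 and Nanog, and the groups overlap for Pou5f1 and Zfp42.

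Promoter windows of 5 factors are shown because they belong to the 2 that fell and to 3 of those that rose most. RefSeq windows (GRCm38.p6, 250 bases before to 50 after a transcript start) were found for 8 of the 10 genes, not for Klf5 and Tbx3. Capitals mark matches, on either strand, to GGGCGG (the GC box bound by SP and KLF proteins), ATTTGCAT (the octamer), TTTGCAT followed by any base and ACAANG (the composite element on which OCT4 and SOX2 sit together) or TATAAA (the TATA box). No match to 1 motif overlapped a match to another. Of all 32817 windows 35.6% hold a GC box, 1.74% the octamer, 13.6% a TATA box, and 3 windows (0.00914%) the composite element. The motifs were picked after these sequences had been read, and a match is a description of the letters.
Nanog (chr6:122707239-122707538, plus strand): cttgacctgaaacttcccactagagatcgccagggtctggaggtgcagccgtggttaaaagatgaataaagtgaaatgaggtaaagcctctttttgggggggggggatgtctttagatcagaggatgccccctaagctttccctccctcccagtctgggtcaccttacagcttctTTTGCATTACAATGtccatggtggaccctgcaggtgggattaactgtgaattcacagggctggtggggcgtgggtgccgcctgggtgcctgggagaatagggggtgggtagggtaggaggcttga
Sox2 (chr3:34649745-34650044, plus strand): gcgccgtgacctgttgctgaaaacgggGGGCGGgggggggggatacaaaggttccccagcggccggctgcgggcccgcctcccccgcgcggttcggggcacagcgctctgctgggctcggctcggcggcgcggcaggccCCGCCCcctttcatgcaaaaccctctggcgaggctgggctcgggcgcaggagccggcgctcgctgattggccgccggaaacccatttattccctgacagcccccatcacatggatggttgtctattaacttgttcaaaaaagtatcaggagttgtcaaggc
Klf4 (chr4:55532426-55532725, minus strand): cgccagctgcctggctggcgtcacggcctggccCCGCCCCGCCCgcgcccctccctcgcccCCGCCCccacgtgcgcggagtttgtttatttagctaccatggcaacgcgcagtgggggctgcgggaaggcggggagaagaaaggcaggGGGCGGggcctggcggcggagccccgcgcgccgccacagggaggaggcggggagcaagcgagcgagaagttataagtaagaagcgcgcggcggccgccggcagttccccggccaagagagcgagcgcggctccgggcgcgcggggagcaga
Klf2 (chr8:72318812-72319111, plus strand): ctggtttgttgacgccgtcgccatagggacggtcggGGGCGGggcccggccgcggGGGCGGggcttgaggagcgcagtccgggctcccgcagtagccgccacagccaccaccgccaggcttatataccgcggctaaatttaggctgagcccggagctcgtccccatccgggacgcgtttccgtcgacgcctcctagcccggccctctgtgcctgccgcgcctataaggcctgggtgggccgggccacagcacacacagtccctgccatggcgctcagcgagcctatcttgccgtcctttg
Tfcp2l1 (chr1:118627695-118627994, plus strand): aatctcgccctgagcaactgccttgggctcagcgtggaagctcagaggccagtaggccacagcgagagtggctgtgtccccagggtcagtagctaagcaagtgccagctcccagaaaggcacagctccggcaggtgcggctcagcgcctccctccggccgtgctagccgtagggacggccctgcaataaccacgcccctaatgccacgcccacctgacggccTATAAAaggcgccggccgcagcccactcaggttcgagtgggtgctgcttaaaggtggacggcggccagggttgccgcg
The Nanog window carried the composite element TTTGCATTACAATG at 75 to 62 bases before the start and held 4 CpG dinucleotides, below the median of 7 over all windows. A second, overlapping Nanog window held the same element, so that Nanog supplied 2 of the 3 windows with it. The Klf4 window held 4 GC boxes, of which a pair share 1 base, with 40 CpG and 74.3% G and C. The Klf2 window held 2 GC boxes, 32 CpG and 69.3% G and C. The Sox2 window held 2 GC boxes and 27 CpG. It ends at 34650044, before the GENCODE start of Sox2 at 34650405, so its RefSeq start lies upstream of the gene coordinates used here. The Tfcp2l1 window held TATAAA at 28 to 23 bases before the start, with 21 CpG. A GC box thus stood in the windows of genes of both directions. Of the windows not printed, those of Esrrb held none of the 4 motifs, the first Pou5f1 window held 1 GC box, and the Zfp42 window held 2 GC boxes and the octamer.

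Of the core trio, Sox2 and Nanog fell while Pou5f1 was level. Pou5f1 (ENSMUSG00000024406.16, chr17:35506018-35510772, plus strand, mm10) encodes OCT4, the POU factor without which the inner cell mass is not maintained. It had 732 and 797 CPM in degron cells, against 725 and 790 CPM in untreated cells. The groups overlapped, and in each group replicate 2 was the higher library. The log2 fold change was 0.01 ± 0.06 (SE), with a 95% interval of -0.10 to 0.13 (edgeR adjusted p = 0.878). The interval holds small changes of either sign, and the sign of the estimate itself turned with the library left out (-0.06 to 0.08). Gm19553, on the opposite strand, shares 317 of the 2248 exonic bases, but had 0 counts in both degron libraries and 1 and 0 counts in the untreated libraries.

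Sox2 (ENSMUSG00000074637.7, chr3:34650405-34652461, plus strand) encodes the HMG-box partner of OCT4. Its mRNA, from 1 exon, lies within an intron of the noncoding gene Sox2ot and shares 0 exonic bases with it. Sox2 had 378 and 363 CPM in degron cells, against 453 and 467 CPM in untreated cells. Both degron libraries lay below both untreated libraries. The change was -0.31 ± 0.05 (SE, edgeR adjusted p = 1.63e-06), with a 95% interval of -0.42 to -0.20. It stayed called in the same direction in each of the 12 alternative analyses, at -0.34 to -0.28.

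Nanog (ENSMUSG00000012396.12, chr6:122707489-122714633, plus strand) encodes the homeodomain factor that can keep mESCs undifferentiated without LIF when overexpressed. It had 759 and 759 CPM in degron cells, against 865 and 900 CPM in untreated cells. The degron libraries were level with each other and below both untreated libraries. The change was -0.22 ± 0.06 (SE, edgeR adjusted p = 0.000924), with a 95% interval of -0.33 to -0.11. With 3 libraries the call was lost when degron replicate 1 (adjusted p = 0.0542) or degron replicate 2 (adjusted p = 0.0519) was left out, while over the 12 alternatives the adjusted p ran between 2.14e-11 and 0.0542 and the change between -0.26 and -0.19. Few reads fell on the annotated processed copies, of which Nanog-ps1 had 0 and 3 counts in degron cells and 0 in both untreated libraries, and Nanog-ps2 had 0 in all libraries.

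The 3 Krüppel-like factors, which bind GC-rich and CACCC sequences through 3 zinc fingers and can stand in for one another in sustaining self-renewal, rose together. Klf4 (ENSMUSG00000003032.8, chr4:55527143-55532466, minus strand), a reprogramming factor and direct target of STAT3, had 364 and 365 CPM in degron cells, against 217 and 227 CPM in untreated cells. The groups were well apart, and the degron libraries nearly coincided. Its change of 0.72 ± 0.05 (SE, edgeR adjusted p = 2.79e-19), or 1.64-fold with a 95% interval of 1.53 to 1.77, was the highest estimate among the 10. Klf5 (ENSMUSG00000005148.8, chr14:99298691-99315036, plus strand), needed for the inner cell mass and trophectoderm of the mouse blastocyst, had 268 and 270 CPM in degron cells, against 172 and 185 CPM in untreated cells. Again both degron libraries lay above both untreated libraries, with a change of 0.59 ± 0.05 (SE, edgeR adjusted p = 2.61e-15), or 1.51-fold. Klf2 (ENSMUSG00000055148.7, chr8:72319033-72321656, plus strand), the family member whose protein MEK and ERK signalling destabilises, had 500 and 488 CPM in degron cells, against 359 and 388 CPM in untreated cells. The groups did not overlap, and the change was 0.40 ± 0.05 (SE, edgeR adjusted p = 2.98e-09), or 1.32-fold. Summed over the trio, the level was 1132 and 1123 CPM in degron cells and 748 and 799.8 CPM in untreated cells. All 3 calls held in each of the 12 alternatives, with ranges of 0.68 to 0.75 for Klf4, 0.53 to 0.65 for Klf5 and 0.34 to 0.46 for Klf2.

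Among the remaining naive factors Tfcp2l1, Tbx3 and Esrrb rose. Tfcp2l1 (ENSMUSG00000026380.10, chr1:118627945-118685168, plus strand), a grainyhead-type factor that acts downstream of LIF and STAT3, had 1197 and 1147 CPM in degron cells, against 896 and 826 CPM in untreated cells. It was the most abundant of the 10 by CPM in degron cells, and its groups did not overlap. The change was 0.44 ± 0.06 (SE, edgeR adjusted p = 8.80e-10), or 1.36-fold. Tbx3 (ENSMUSG00000018604.18, chr5:119670669-119684724, plus strand), a T-box repressor linked to PI3K signalling in mESCs, had 214 and 210 CPM in degron cells, against 163 and 166 CPM in untreated cells. All libraries of a group were close together and the groups apart, with a change of 0.37 ± 0.05 (SE, edgeR adjusted p = 3.35e-08), or 1.29-fold. Tbx3os1, on the opposite strand, shares 115 of the 6624 exonic bases of Tbx3 and had 16 and 12 counts in degron cells and 20 in each untreated library. Both calls held in each of the 12 alternatives, at 0.39 to 0.50 for Tfcp2l1 and 0.34 to 0.40 for Tbx3.

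Esrrb (ENSMUSG00000021255.17, chr12:86361117-86521628, plus strand) encodes an orphan nuclear receptor that is derepressed when GSK3 is inhibited. It had 705 and 705 CPM in degron cells, against 618 and 641 CPM in untreated cells. The groups did not overlap, but the change was the smallest of the 6 increases, at 0.16 ± 0.06 (SE, edgeR adjusted p = 0.0117), or 1.12-fold with a 95% interval of 1.04 to 1.21. Esrrb missed the threshold when untreated replicate 1 (0.0685), degron replicate 1 (0.130) or degron replicate 2 (0.127) was left out (adjusted p in edgeR), and over the 12 alternatives the adjusted p ran between 1.46e-06 and 0.130 while the change kept its sign, at 0.13 to 0.19.

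Zfp42 (ENSMUSG00000051176.6, chr8:43295063-43306980, minus strand) encodes REX1, a YY1-related zinc finger protein used as a reporter of the naive state. It had 513 and 528 CPM in degron cells, against 515 and 590 CPM in untreated cells. The groups overlapped, and untreated replicate 2 stood above the other libraries. The change was -0.09 ± 0.06 (SE, edgeR adjusted p = 0.228), with a 95% interval of -0.20 to 0.03. Without untreated replicate 1 it was called lower, at -0.19 (adjusted p = 0.00382), and without untreated replicate 2 it was 0.02 (adjusted p = 0.838), the lowest and the highest adjusted p over the 12 alternatives. The processed copy Zfp42-ps1 on chromosome 15, which could share reads with it, had 15.2 and 15.6 CPM in degron cells, against 19.4 and 19.8 CPM in untreated cells (log2 fold change -0.34 ± 0.13, SE, edgeR adjusted p = 0.0209).

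**Figure D2:**
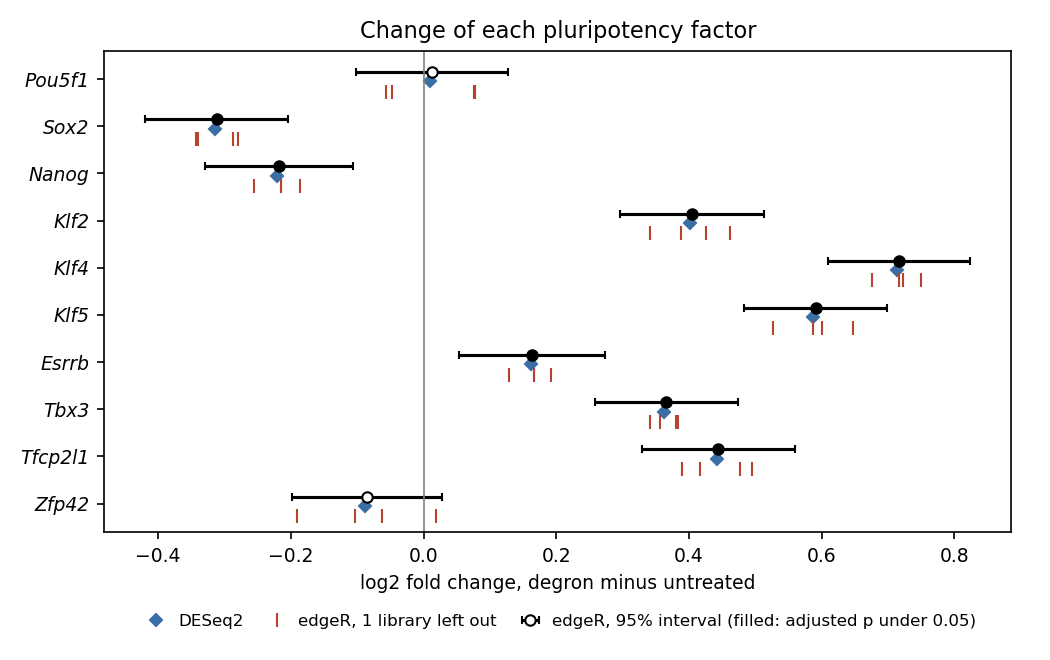
The plot of changes gives the log2 fold change, degron minus untreated, of each factor in edgeR with its 95% interval (filled circles: adjusted p under 0.05), in DESeq2 (diamonds) and in edgeR with 1 library left out in turn (ticks). Klf4 at 0.72 and Sox2 at -0.31 are the extremes, and only the ticks of Pou5f1 and Zfp42 fall on both sides of 0.

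Since the factors moved in opposite directions, their proportions within a library changed, and such ratios of raw counts need no scaling between libraries. Klf4 had 0.479 and 0.481 counts per Nanog count in degron cells, against 0.251 and 0.252 in untreated cells. Klf4 had 0.963 and 1.01 counts per Sox2 count in degron cells, against 0.480 and 0.486 in untreated cells. Tfcp2l1 had 1.58 and 1.51 counts per Nanog count in degron cells, against 1.04 and 0.918 in untreated cells. All 3 ratios were higher in both degron libraries, with log2 differences between group means of 0.93, 1.03 and 0.66. Within the KLF trio the ratio of Klf4 to Klf2 was 0.727 and 0.749 in degron cells, against 0.605 and 0.585 in untreated cells, so that Klf4 rose further than Klf2 in these libraries (log2 difference 0.31). The ratio of Klf4 to Klf5 changed less, at 1.36 and 1.35 in degron cells against 1.26 and 1.22 in untreated cells. The ratio of Nanog to Sox2 was 2.01 and 2.09 in degron cells, against 1.91 and 1.93 in untreated cells. Relative to Pou5f1, the factor that was level, Klf4 had 0.497 and 0.458 counts per Pou5f1 count in degron cells against 0.299 and 0.287 in untreated cells, and Sox2 had 0.517 and 0.455 in degron cells against 0.624 and 0.591 in untreated cells. These ratios come from the same counts as the changes above and were given no test, and a ratio shows unequal change only.

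**Figure D3:**
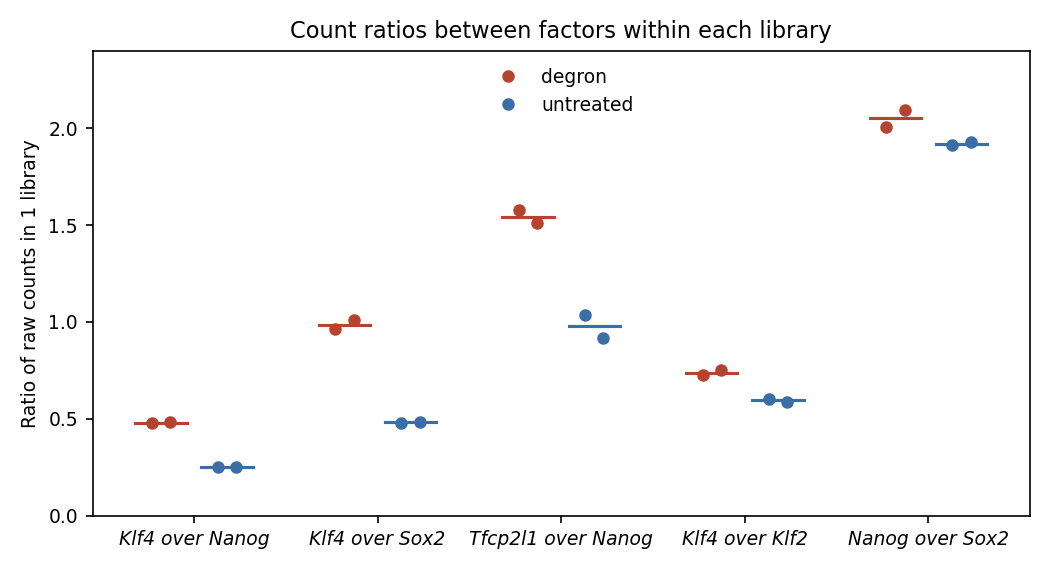
The plot of count ratios shows, for 5 pairs of factors, the raw count of the first over that of the second in each library, degron left of untreated, with a bar at the group mean (n = 2). The ratio of Klf4 to Sox2 is near 1 in degron cells (0.963 and 1.01) and lower in untreated cells (0.480 and 0.486).

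Levels of different genes were compared as CPM per kb of exonic length. In degron cells the order was Pou5f1 (340.0 CPM per kb), Nanog (339), Zfp42 (277), Klf2 (267), Sox2 (180.1), Tfcp2l1 (124), Klf4 (119.6), Esrrb (117), Klf5 (51.7) and Tbx3 (32.0). In untreated cells it was Nanog (394 CPM per kb), Pou5f1 (337), Zfp42 (294), Sox2 (224), Klf2 (202), Esrrb (104), Tfcp2l1 (91.2), Klf4 (72.8), Klf5 (34.3) and Tbx3 (24.9). Neighbours in each order had libraries that did not overlap, except Pou5f1 and Nanog in degron cells. Klf2 thus stood above Sox2 in degron cells and below it in untreated cells, and Tfcp2l1 and Klf4 stood above Esrrb in degron cells and below it in untreated cells. Klf5 and Tbx3 were the lowest per length in both groups. The length is that of all annotated exons merged, so the isoforms a gene uses can shift its level on this scale. Summed by CPM, the 10 factors gave 5630 and 5633 in degron cells and 4983 and 5182 in untreated cells, while the core trio gave 1869 and 1919 in degron cells and 2043 and 2158 in untreated cells.

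For each factor the tested gene with the most similar profile over the 4 libraries was sought among 9733 genes that averaged at least 10 CPM in a group, by Euclidean distance between centred log2 CPM values (pseudocount 0.5). The nearest genes were Sephs2 for Pou5f1, Zfp322a for Sox2, Rrp9 for Nanog, Lrrc34 for Klf2, Tcn2 for Klf4, Ccdc160 for Klf5, Cep95 for Esrrb, Slc10a7 for Tbx3, Chd2 for Tfcp2l1 and Mat2a for Zfp42. The distances were lowest for Tbx3 (0.0074) and highest for Klf4 (0.0314), and none of the 10 factors was the nearest gene of another. With 4 libraries in 2 groups such profiles hold little beyond the difference between groups and the spread within them.

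The other genes of the pluripotency network were counted from lists. Of 20 further pluripotency transcription factors, 19 were tested, of which 7 rose and 4 fell, with a median of 0.01. Here and in the lists that follow, counts stand beside 22.2% of all tested genes called higher and 21.6% called lower. Among those that rose were Nr0b1 (0.47 ± 0.07, SE, edgeR adjusted p = 3.99e-08), which encodes the OCT4-binding nuclear receptor DAX1, and Foxd3 (0.62 ± 0.13, SE, adjusted p = 4.95e-05), a forkhead factor. Gbx2, a homeobox target of STAT3, stood at 9.90 and 10.8 CPM in degron cells, against 4.63 and 5.62 CPM in untreated cells, but 43.5% of its exonic bases are shared with D130058E05Rik on the opposite strand, and the strand setting of the counting is not given in the sources used here. Among those that fell were Utf1, an epiblast chromatin factor (-1.43 ± 0.08, SE, adjusted p = 4.70e-26), Mycn (-0.54 ± 0.07, SE, adjusted p = 6.94e-11) and Sall1 (-0.24 ± 0.05, SE, adjusted p = 0.000189). Utf1 had 34.9 and 28.6 CPM in degron cells, against 80.7 and 91.7 CPM in untreated cells. Its fall was larger than that of any of the 10 factors. Rarg, also called lower (-0.28 ± 0.10, SE, edgeR adjusted p = 0.0124), lost its call in 3 of the 12 alternatives. These were DESeq2 (adjusted p = 0.222) and the fits without untreated replicate 2 (change -0.24) or degron replicate 1 (change -0.24).

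Of 18 downstream stem cell markers, all tested, 4 rose and 11 fell, with a median of -0.31. The same shares were 22.2% and 21.6% over all tested genes, and 19.9% and 44.1% among those at least as abundant as Tbx3. Several genes of this list, among them Lin28a, Lefty1 and Dppa3, were less abundant than Tbx3. The shares of the abundant genes are therefore not matched to the list. The risers were the secreted or surface proteins Spp1 (osteopontin, 0.67 ± 0.06), Jam2 (0.58 ± 0.05), Alpl (the alkaline phosphatase stained in mESCs, 0.54 ± 0.05) and Gdf3 (0.33 ± 0.06, all SE, edgeR adjusted p = 7.04e-06 or lower). Tdgf1, the Nodal co-receptor Cripto, was 484 CPM in both degron libraries, against 873 and 844 CPM in untreated cells (-0.83 ± 0.06, SE, adjusted p = 1.52e-21). Lin28a, which blocks let-7 maturation, had 89.2 and 86.5 CPM in degron cells, against 156 and 152 CPM in untreated cells. L1td1 fell by 0.51 on the log2 scale and Lefty1, a Nodal antagonist whose reads could be shared with the similar Lefty2, fell by 1.14. In these 4 genes both degron libraries lay below both untreated libraries. Of Spp1, 18.8% of exonic bases are shared with Gm42793 on the same strand.

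Factors of the formative and primed states, the steps that follow naive pluripotency, held no riser. Of 14 listed genes 9 were tested and 4 fell, with a median of -0.38. Otx2, which drives the exit from the naive state, had 2.61 and 3.45 CPM in degron cells, against 11.7 and 11.1 CPM in untreated cells (-1.92 ± 0.215, SE, edgeR adjusted p = 7.37e-12). Etv4, an ETS factor and ERK target, had 1.2 and 0.953 CPM in degron cells, against 6.61 and 8.32 CPM in untreated cells. Zic5 fell by 0.75 and Dnmt3b, the de novo DNA methyltransferase, fell by 0.38 on the log2 scale. The groups were separated in each of these 4 genes. Fgf5 and Cer1 were at 0 in all libraries.

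Genes of the pathways of the 3 culture signals, components and targets listed together, moved in both directions. Of 8 LIF pathway genes, all tested, 2 rose and 3 fell, with a median of 0.01. Stat3 itself rose (0.28 ± 0.06, SE, edgeR adjusted p = 3.37e-05), whereas Socs3, the feedback inhibitor that STAT3 induces, had 124 and 121 CPM in degron cells, against 163 and 158 CPM in untreated cells (-0.39 ± 0.06, SE, adjusted p = 1.63e-08). Pim3, a kinase gene, fell by 0.27 on the log2 scale. The remaining gene that fell, Pim1 (-0.19 ± 0.06, SE, edgeR adjusted p = 0.00319), lost its call in 2 of the 12 alternatives. These were DESeq2 (adjusted p = 0.0738) and the fit without degron replicate 2 (change -0.13). Of Pim1, 14.5% of exonic bases are shared with Gm26885 on the opposite strand. The second riser, Il6st, which encodes the receptor subunit gp130, was not called without degron replicate 2 (0.18, adjusted p = 0.0819, between 4.20e-06 and 0.0819 over the 12 alternatives), which left 1 riser. Klf4 and Socs3, both STAT3 targets, thus moved in opposite directions. Of 8 Wnt pathway genes 6 were tested, 4 rose and 2 fell, with a median of 0.39. The risers included the β-catenin targets Cdx1 (51.0 and 50.6 CPM in degron cells, against 23.2 and 20.8 CPM in untreated cells), Sp5 (7.73 and 7.03 CPM in degron cells, against 1.51 and 2.49 CPM in untreated cells) and Axin2 (0.53 ± 0.08, SE, adjusted p = 1.18e-07), with Tcf7l1 (0.26 ± 0.06, SE, adjusted p = 0.000175). Tcf7, another TCF gene, fell by 0.28 on the log2 scale. Ctnnb1 fell by 0.22 but was not called without degron replicate 1 (-0.19, adjusted p = 0.0757, between 3.37e-10 and 0.0757 over the 12 alternatives), and shares 14.6% of its exonic bases with Ulk4 on the opposite strand. Of 8 ERK pathway genes 6 were tested, 1 rose and 2 fell, with a median of -0.39. Etv4, given above, had the smallest p among them. The other that fell, Dusp4 (-0.996 ± 0.339, SE, adjusted p = 0.0125), lost its call in DESeq2 (0.258), without degron replicate 2 (0.0959) and without untreated replicate 1, where its change was -0.28 (0.690), with adjusted p between 0.000419 and 0.690 over the 12 alternatives. Likewise the single riser Spry2 (0.24 ± 0.07, SE, adjusted p = 0.00579) was not called by DESeq2 (adjusted p = 0.182) or without degron replicate 2 (adjusted p = 0.184), its adjusted p over the 12 alternatives running between 0.00209 and 0.184.

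**Figure D4:**
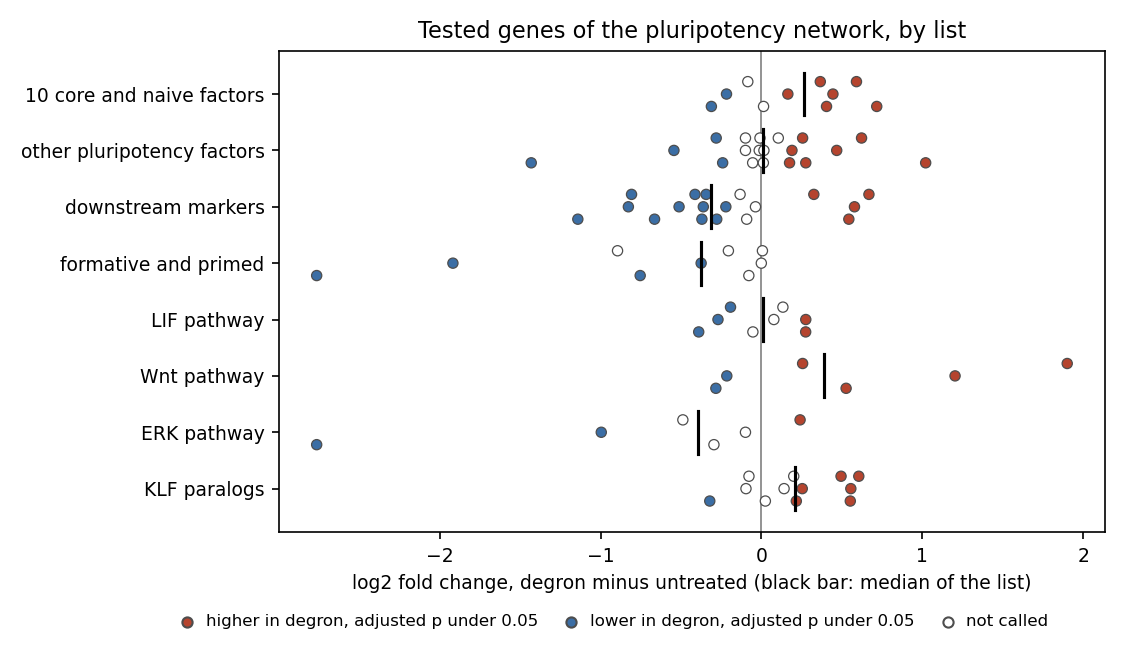
The plot of network genes by list gives the log2 fold change, degron minus untreated, of each tested gene (red: higher, blue: lower, open: not called) with a black bar at the median of the list. Medians are 0.26 for the 10 factors, 0.01 for other pluripotency factors, -0.31 for downstream markers and -0.38 for formative and primed factors.

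Paralogs of the 10 factors were counted by family. Of 14 further KLF genes 12 were tested, 6 rose and 1 fell, with a median of 0.21. Klf13 had 114 and 112 CPM in degron cells, against 76.3 and 77.0 CPM in untreated cells (0.56 ± 0.06, SE, edgeR adjusted p = 3.45e-12). Klf3, which encodes a CtBP-binding repressor, rose by 0.49 on the log2 scale, Klf8 by 0.55 and Klf15 by 0.61. Klf10, a TGF-β-induced gene, had 96.2 and 98.9 CPM in degron cells, against 122 CPM in both untreated libraries (-0.32 ± 0.06, SE, adjusted p = 4.43e-06). DESeq2 called 5 of these paralogs higher, losing Klf16 (adjusted p = 0.119, against 0.00187 in edgeR and 0.000452 to 0.119 over the 12 alternatives), and 1 lower. Together with Klf2, Klf4 and Klf5, 9 of the 15 tested KLF genes rose and 1 fell, beside 22.2% and 21.6% of all tested genes.

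The other families are given in turn, with calls that mostly depended on the analysis. Of 19 further SOX genes 9 were tested, of which 2 fell and 0 rose. Those that fell were Sox15 (7.62 and 8.10 CPM in degron cells, against 14.6 CPM in both untreated libraries) and Sox4. Of Sox4, 54.6% of exonic bases are shared with Gm26735 on the opposite strand. Sox4 was at the threshold (edgeR adjusted p = 0.0497) and lost its call in 8 of the 12 alternatives, each left-out library among them (0.0513 to 0.211), with adjusted p between 0.0348 and 0.357 over all 12. In 7 alternatives 1 SOX gene was called lower in place of 2, and in 4 alternatives 1 was called higher in place of 0. Of 14 further POU genes 8 were tested, of which 1 rose and 1 fell, the second being Pou2f3 (38.8 and 28.5 CPM in degron cells, against 56.3 and 52.4 CPM in untreated cells). The riser, Pou2f2 (6.75 and 5.60 CPM in degron cells, against 3.12 and 3.57 CPM in untreated cells, edgeR adjusted p = 0.00164), was not called by DESeq2 (0.108) or without degron replicate 1 (0.0602), with adjusted p between 0.000483 and 0.108 over the 12 alternatives. Of 16 further T-box genes 6 were tested and 4 rose, with Tbx18, Tbx15 and Tbx20 below 4 CPM in every library and none of these 3 called by DESeq2 (adjusted p of 0.0784 to 0.166), and without degron replicate 2 the T-box count was 2. Tbx18 shares 20.6% of its exonic bases with D030062O11Rik on the opposite strand. Mga, at 321 and 330 CPM in degron cells against 301 and 281 CPM in untreated cells, was the 1 abundant riser (0.16 ± 0.05, SE, edgeR adjusted p = 0.0113). It lost its call in 4 of the 12 alternatives, DESeq2 among them (adjusted p = 0.0762). The others were the fits without untreated replicate 2 (change 0.11), degron replicate 1 (change 0.18) and degron replicate 2 (change 0.14). Esrra, the tested paralog of Esrrb, was lower (-0.20 ± 0.08, SE, edgeR adjusted p = 0.0420) but lost this call in 6 of the 12 alternatives. Among them were DESeq2 (adjusted p = 0.352) and the fits without untreated replicate 1 (change -0.14), degron replicate 1 (change -0.25) or degron replicate 2 (change -0.15). Of 5 further genes of the TFCP2 and grainyhead family Tfcp2 rose (0.37 ± 0.11, SE, edgeR adjusted p = 0.00339) and Grhl3 fell (-0.39 ± 0.13, SE, adjusted p = 0.0114). Neither was called by DESeq2 (0.141 for Tfcp2 and 0.226 for Grhl3). Tfcp2 was also lost without untreated replicate 2 (0.0988), the 12 alternatives giving it an adjusted p of 0.000282 to 0.141. Grhl3 was also lost without untreated replicate 1 (change -0.20, adjusted p = 0.307) or degron replicate 2 (change -0.28, adjusted p = 0.167), the 12 alternatives giving it an adjusted p of 0.000472 to 0.307. Yy1, the paralog of Zfp42, had a change of -0.08 and was not called. With each gene of these lists counted once, 102 of 140 genes were tested, with 28 higher, 31 lower and a median of -0.08.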

How the data were processed

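RNA of 4 libraries (2 degron, 2 untreated) was extracted with TRIzol and sequenced. The labels describe poly(A) libraries, whereas the text of the study speaks of total RNA-seq. The authors deposited unnormalized counts for each gene, made with cutadapt 2.6, STAR 2.7.6a on mm10 and featureCounts 1.6.3 on GENCODE release 25, from primary alignments without PCR duplicates, which can lower the counts of very abundant genes. The strand setting is not given in the sources used here. Library totals were 8344408 to 10604451 counts. The number of per-sample columns not used was 0. Symbols, coordinates and exonic lengths came from GENCODE release 21 (55141 of 55401 IDs matched without version, 260 did not).

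Testing used the quasi-likelihood F test of edgeR 4.0.16 (R 4.3.3) after filterByExpr and TMM scaling, with group as the only term, and Benjamini-Hochberg adjustment over 13916 genes (threshold 0.05). The SE is the size of the log2 fold change over the square root of F, and ± values are SE. The procedure was tested on simulated counts, with 50 genes changed at each size. It recovered 34% of them at 1.2-fold, 76% at 1.5-fold, 92% at 2-fold and 98% at 4-fold, with 2.6% false calls. Changes of 1.2-fold were thus mostly missed. Libraries of a group differed beyond sampling noise (chi-square per gene 1.54 in the degron pair and 1.98 in the untreated pair, where about 1 is noise alone), so none were merged. Alternatives were DESeq2 1.42.0, the tool of the study, limma-voom (limma 3.58.1), 3 other scalings, no count filter or one at 1 CPM in the means of both groups, the replicate number as a block, and each library left out, where a lone library is assumed to vary as the other group does.

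The 10 factors and the gene lists were chosen with earlier results of these data known. The text names the 10 factors, up to 4 called genes per direction of each list in order of p, and the gene nearest to each factor. Overlapping genes, processed copies, Klf16, endoderm genes and the genes at 0 were named after their values were seen. Promoter windows are from RefSeq.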

Additional observations from a re-analysis of the deposited data

How the results depend on the processing

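Klf2, Klf4, Klf5, Tbx3, Tfcp2l1 and Sox2 kept their call and direction in each of the 12 alternatives. With 1 library left out, the log2 fold change ran between -0.0571 and 0.0774 for Pou5f1, -0.26 and -0.19 for Nanog, 0.13 and 0.19 for Esrrb, and -0.19 and 0.0182 for Zfp42, and 5 to 6 factors were called higher and 1 to 3 lower. Nanog lost its call in 2 of these 4 fits and Esrrb in 3, while both kept it in the other 8 alternatives. Over all genes DESeq2 called 1440 higher and 1484 lower, against 3087 and 3006 in edgeR. DESeq2 took in 26808 genes, against 13916 in edgeR, and left 13513 of its 26808 without an adjusted p. In the lists DESeq2 called 18 genes higher, against 28 in edgeR. The shared replicate numbers do not pair the libraries by the labels, and deviations of same-numbered libraries correlated at 0.04. With the replicate block Zfp42 was called lower (-0.0821, edgeR adjusted p = 0.0303), which made 3 factors lower, and 3369 genes were higher and 3276 lower over all genes. The cause of these shifts was not tested. The median change of all genes moved by less than 0.1 on the log2 scale under every scaling tried. The 2 libraries per group limit what small changes, such as those of Pou5f1, Zfp42 and Esrrb, can show. No spike-in was used, so a shift shared by all genes cannot be seen.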
